A study of Rattus norvegicus with 8 samples.

Results

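Genes of iron uptake, storage and export were read in cells sorted from the young rat brain for the antigen A2B5 or GalC. The set was Tfrc, Fth1, Ftl1, Slc11a2, Slc40a1, Hmox1, Cp, Hfe and Ireb2, 9 genes in all, and a probe set counted as a member where the platform's gene table gave it 1 of these symbols and no other. By that rule 13 of the 31042 tested probe sets were members, and they read 7 of the 9 genes. The ferritin genes Fth1 and Ftl1 had no probe set of their own, since each one's probe set is also tied to related sequences. At postnatal day 7 whole rat brains were taken apart, and cells positive for 1 of the antigens were collected by flow cytometry for RNA. The A2B5+ group, which the labels call progenitors, binds an antibody to gangliosides of glial precursors, and the GalC+ group, called oligodendrocytes, carries the myelin lipid galactocerebroside. Each group had 4 arrays, and each array held cells of 1 pooled litter of 10 pups, so the spread between arrays is that between litters and sorts. No treatment is named in the labels, and neither strain nor sex is given in the sources used here.

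Iron travels in blood bound to transferrin and enters cells when the transferrin receptor Tfrc is taken up, after which Slc11a2 carries it out of the endosome. Surplus iron is stored in ferritin, a shell of heavy (Fth1) and light (Ftl1) chains, or leaves through ferroportin (Slc40a1), helped by the ferroxidase ceruloplasmin (Cp). Heme iron is freed by heme oxygenase Hmox1, and the RNA-binding protein Ireb2 adjusts several of these transcripts to the iron at hand. Oligodendrocytes are the cells of the brain richest in iron, which enzymes of lipid and energy metabolism need during myelination.

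The deposited values are ratios, in which a probe set's signal is divided by its own median over the 8 arrays, so a value of 1 is that median and the level itself is not recoverable. Members are therefore compared between arrays and never with each other, and no order of expression among iron genes can be given. A probe set was called higher or lower where limma, fitted over all 31042 probe sets, gave a Benjamini-Hochberg adjusted p under 0.05, and a log2 fold change is that of GalC+ over A2B5+ throughout. In bulk RNA, fewer cells of a type and less RNA per cell cannot be told apart.

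Array medians lay between 0.979 and 1.03, and the first principal component, which held 73.0% of the variance, separated the groups. The labels were checked against markers at the level of genes, each list's level on an array being the mean log2 ratio of its measured genes. Of 14 markers of myelinating oligodendrocytes 13 were higher in GalC+, with list levels of -2.80 to -2.02 on A2B5+ and 0.80 to 1.66 on GalC+ arrays. Progenitor markers did not stand apart as a list (3 of 11 lower and 2 higher, median log2 fold change 0.01). Pdgfra (-1.26 ± 0.23 SE, adjusted p = 0.00208), Nxph1 (-2.35 ± 0.4, adjusted p = 0.00153) and Olig1 (-0.35 ± 0.1, adjusted p = 0.0241) were lower. Sox10 (1.54 ± 0.19, adjusted p = 0.000304) and Tnr (1.72 ± 0.28, adjusted p = 0.0012) were higher. Macrophage and microglia markers were higher in 17 of 22 cases (list levels -1.37 to -0.57 against 0.23 to 0.68), and mural cell markers in 10 of 12 (-0.89 to -0.47 against 0.28 to 0.91). Neuron markers were lower in 14 of 18 (0.40 to 0.78 against -1.45 to -0.43) and genes of dividing cells in 20 of 21 (0.23 to 0.69 against -0.50 to -0.31). Few members of the endothelial (1 of 16 higher, 0 lower) and astrocyte lists (0 of 13 in either direction) passed. In the red cell list 3 of 12 were higher (25.0%) and 0 lower. In the choroid plexus or ependymal list 2 of 10 were higher and 2 lower (20.0% each). Among all genes 18.2% were higher and 17.5% lower. Whether any marker was at 0 cannot be seen in ratios.

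Genes of iron export and heme breakdown, and Hfe, were higher in GalC+ cells, while the importers Tfrc and Slc11a2 showed no difference that passed. Of the 13 member probe sets 7 were higher in GalC+ and 0 lower, against 13.5% higher and 13.2% lower among all probe sets. The 7 belonged to 4 genes, Slc40a1 with 3 probe sets, Cp with 2, Hmox1 and Hfe, so they are not 7 separate observations. Every GalC+ array lay above every A2B5+ array in 7 of the 13 members, the same 7, and in 15.2% of all probe sets. The median log2 fold change of the 13 was 0.65, beside 0.04 over all probe sets. Read once per gene, 4 of 7 genes were higher and 0 lower, where 18.2% of all 14217 genes were higher and 17.5% lower.

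**Figure D1:**
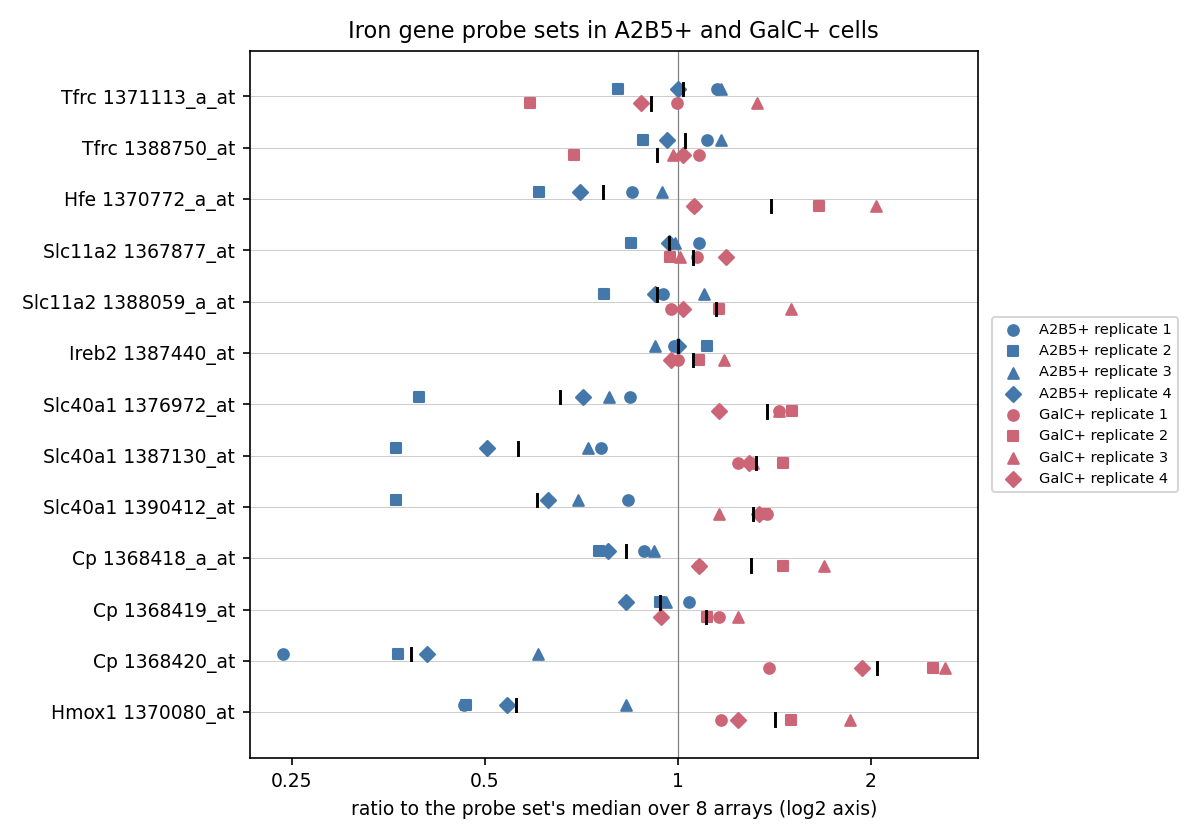
Ratio of each member probe set to its median over the 8 arrays (log2 axis), with A2B5+ arrays in blue, GalC+ arrays in red, 1 marker shape for each of replicates 1 to 4 and a black tick at the geometric mean of each group. The groups are apart for Slc40a1, Hmox1, Hfe and 2 of the 3 Cp probe sets, and overlap for Tfrc, Slc11a2 and Ireb2.

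Promoter sequences are shown for Cp and Slc40a1, which rose on the export side, and for the importer Tfrc, which did not pass. Each sequence is the 250 bases before the gene's start in RefSeq (build GRCr8), written 5′ to 3′ on the gene's strand, which for Cp is chr2:104368420-104368669 (plus), for Slc40a1 chr9:55543461-55543710 (minus) and for Tfrc chr11:81690319-81690568 (minus). Of the 9 genes, 5 had such a window in the table. Those of Slc11a2 and Ireb2, which did not pass either, are not printed. Capitals mark matches, on either strand, to 5 motifs: the hypoxia response core ACGTG, the GC box GGGCGG, the CCAAT box CCAAT, the TATA box TATAAA and the antioxidant response core TGACNNNGC.
Cp: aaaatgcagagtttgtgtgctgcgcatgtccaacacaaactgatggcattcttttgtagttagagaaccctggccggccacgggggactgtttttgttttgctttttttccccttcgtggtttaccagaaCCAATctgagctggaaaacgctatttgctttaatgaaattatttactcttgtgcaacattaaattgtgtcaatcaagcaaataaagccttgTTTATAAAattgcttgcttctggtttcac
Slc40a1: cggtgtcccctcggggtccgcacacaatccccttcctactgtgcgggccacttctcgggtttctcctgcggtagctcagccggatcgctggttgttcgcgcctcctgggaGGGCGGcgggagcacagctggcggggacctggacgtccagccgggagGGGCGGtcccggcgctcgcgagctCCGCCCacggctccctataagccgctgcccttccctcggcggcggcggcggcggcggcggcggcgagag
Tfrc: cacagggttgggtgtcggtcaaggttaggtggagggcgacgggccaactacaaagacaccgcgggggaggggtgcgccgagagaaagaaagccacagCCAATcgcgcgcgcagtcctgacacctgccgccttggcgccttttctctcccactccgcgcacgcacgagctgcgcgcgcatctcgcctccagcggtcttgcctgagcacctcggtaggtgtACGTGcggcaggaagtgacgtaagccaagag

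The Cp window held a CCAAT box and, between 29 and 22 bases before the start, the TATA box letters on both strands in overlap. The Slc40a1 window held 3 GC boxes, which end 135, 88 and 64 bases before the start, and none of the other motifs. The Tfrc window held a CCAAT box and 1 hypoxia response core 31 to 27 bases before the start. GC boxes were not limited to Slc40a1. Of the windows not printed, that of Ireb2 held 2 GC boxes. For Slc11a2, 1 window held 4 GC boxes and 2 CCAAT boxes, and another held none of the motifs. Among all 33469 windows of this length in the table, 16.6% held the hypoxia core, 30.5% the GC box, 34.0% the CCAAT box, 12.9% the TATA box and 10.1% the antioxidant core, so none of these motifs is rare. A match describes the sequence and shows no binding.

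Iron uptake is described first. The transferrin receptor Tfrc was read by 2 probe sets, and neither differed between the groups. On probe set 1371113_a_at the ratios were 1.15, 0.808, 1.17 and 1.00 in A2B5+ replicates 1 to 4 and 0.999, 0.589, 1.33 and 0.876 in GalC+ replicates 1 to 4. GalC+ held both the lowest and the highest of the 8 values, so the groups overlap fully. The log2 fold change was -0.16 ± 0.22 SE (n = 4 and 4, 95% interval -0.66 to 0.33, adjusted p = 0.623), and without GalC+ replicate 2 its sign turned (0.05). Probe set 1388750_at ranged from 0.883 to 1.17 in A2B5+ and from 0.688 to 1.08 in GalC+, with a log2 fold change of -0.14 ± 0.15 (95% interval -0.48 to 0.19, adjusted p = 0.513). Replicate 2 of each group was its lowest array on both probe sets. Both intervals leave out a rise or a fall of 2-fold, but smaller changes in either direction remain possible.

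Levels of the endothelial list on the same arrays were 0.24, -0.83, 0.16 and -0.08 in A2B5+ replicates 1 to 4 and 0.19, -0.75, -0.18 and 0.07 in GalC+ replicates 1 to 4. Replicate 2 was lowest in each group for the endothelial list, as for Tfrc, but also for the astrocyte and the choroid plexus or ependymal lists (3 of 9 cell type lists). On GalC+ replicate 3, the highest array for Tfrc on 1371113_a_at, the endothelial list was at -0.18 and the astrocyte list at 0.34. On 1388750_at the ratios were 1.08, 0.688, 0.982 and 1.02 in GalC+ replicates 1 to 4, the order of arrays that the endothelial list also had. Among A2B5+ arrays that probe set was highest on replicate 3 (1.17) and the endothelial list on replicate 1. Genes of dividing cells, which take up much iron through Tfrc, were lower in GalC+ as given above. The part of any of these in the values of Tfrc was not tested.

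Hfe, an MHC-like protein that binds the transferrin receptor and takes part in iron sensing, was read by 1 probe set. Its ratios were 0.850, 0.608, 0.944 and 0.703 in A2B5+ replicates 1 to 4 and 1.06, 1.66, 2.04 and 1.06 in GalC+ replicates 1 to 4. The groups did not overlap, but GalC+ replicates 2 and 3 stood well above replicates 1 and 4, which were near the highest A2B5+ array. The rise of Hfe was 1.82-fold (0.87 ± 0.23 SE on the log2 scale, n = 4 and 4, adjusted p = 0.0177). The call was lost without A2B5+ replicate 2 (0.76, adjusted p = 0.0544), without GalC+ replicate 2 (0.78, adjusted p = 0.0512) and with the spread taken from each probe set alone (adjusted p = 0.0778).

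Slc11a2, the divalent metal transporter that moves iron from the endosome to the cytosol, did not pass on either of its 2 probe sets. On 1388059_a_at the ratios were 0.950, 0.768, 1.10 and 0.922 in A2B5+ replicates 1 to 4 and 0.978, 1.16, 1.5 and 1.02 in GalC+ replicates 1 to 4. GalC+ replicate 3 was the highest array, and replicates 1 and 4 lay within the A2B5+ range. The log2 fold change was 0.31 ± 0.15 (95% interval -0.02 to 0.64, adjusted p = 0.16). On 1367877_at it was 0.13 ± 0.10 (-0.09 to 0.34, adjusted p = 0.363), with ratios of 0.846 to 1.08 in A2B5+ and 0.974 to 1.19 in GalC+.

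Ireb2, which binds iron-responsive elements in the transcripts of ferritin, Tfrc and others, did not differ beyond the spread between arrays. Its ratios ran from 0.922 to 1.11 in A2B5+ and from 0.976 to 1.18 in GalC+, which overlap over most of their range. The log2 fold change was 0.08 ± 0.09 (95% interval -0.12 to 0.28, adjusted p = 0.551). Aco1, the other iron-regulatory protein, which lies outside the set and was named after its value was seen, had -0.12 ± 0.09 (adjusted p = 0.333).

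Iron storage could not be read for a single ferritin gene. A probe set tied to Fth1 and its pseudogene Fth1-ps5 had ratios of 0.948, 0.971, 0.981 and 0.938 in A2B5+ and 1.02, 1.06, 1.12 and 1.02 in GalC+ replicates 1 to 4. The groups did not overlap, yet the difference was small and did not pass (log2 fold change 0.14 ± 0.07, adjusted p = 0.159; with the spread taken from each probe set alone, 0.0448). A probe set tied to Ftl1, Ftl1l2, Ftl1-ps14 and 2 loci without a gene name had ratios of 0.919, 0.902, 0.957 and 0.956 in A2B5+ and 1.04, 1.23, 1.25 and 1.07 in GalC+. It was higher in GalC+ by 1.23-fold (0.30 ± 0.08, adjusted p = 0.0232), but with 1 array removed it missed the threshold in 4 of 8 cases (up to an adjusted p of 0.0653, without GalC+ replicate 2). Which of the tied sequences gave these signals cannot be told, so they count for neither gene.

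Ferroportin mRNA was higher in GalC+ on each of the 3 probe sets of Slc40a1, the only known iron exporter of animal cells. On 1387130_at the ratios were 0.758, 0.363, 0.725 and 0.504 in A2B5+ replicates 1 to 4 and 1.24, 1.46, 1.31 and 1.29 in GalC+ replicates 1 to 4. GalC+ arrays were close together and all above A2B5+, where replicate 2 was lowest. This was a 2.35-fold rise (log2 fold change 1.23 ± 0.21 SE, n = 4 and 4, adjusted p = 0.00191). Probe sets 1376972_at (2.10-fold, 1.07 ± 0.21, adjusted p = 0.0047) and 1390412_at (2.17-fold, 1.12 ± 0.22, adjusted p = 0.00406) gave similar sizes. Ratios on the former ran from 0.395 to 0.842 in A2B5+ and from 1.16 to 1.51 in GalC+, and on the latter from 0.363 to 0.837 and from 1.16 to 1.38. A2B5+ replicate 2 was the lowest array on all 3 probe sets. With any 1 of the 8 arrays removed all 3 still passed (adjusted p up to 0.0156).

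**Figure D2:**
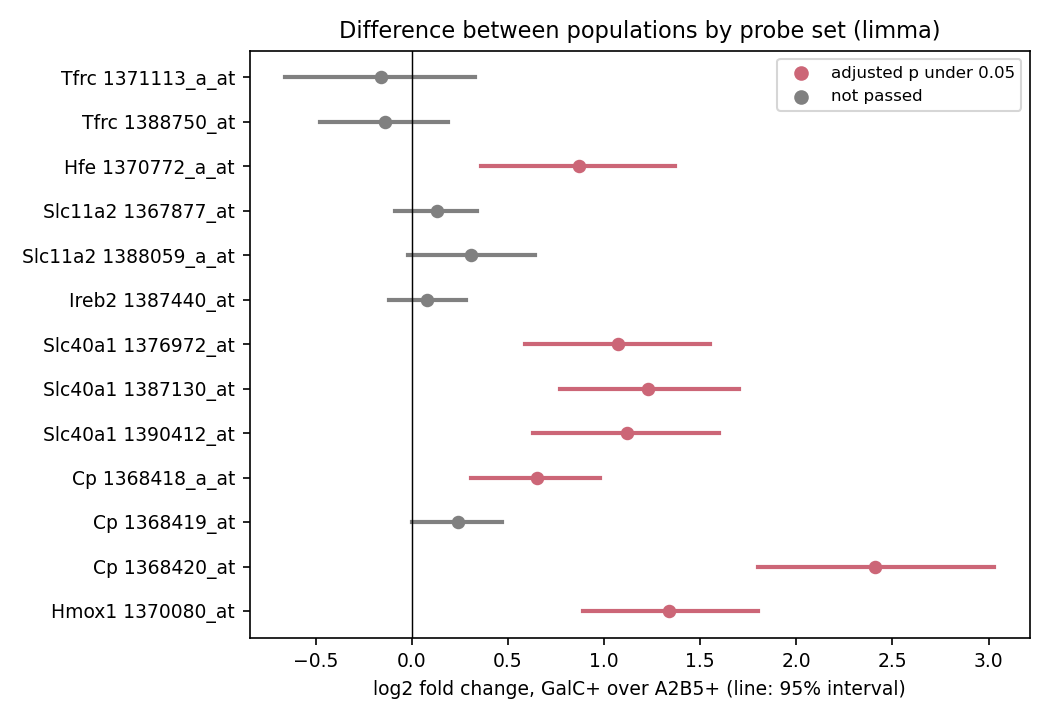
Log2 fold change of GalC+ over A2B5+ for each member probe set, with its 95% interval from limma; red points had an adjusted p under 0.05 and grey points did not. The 3 Slc40a1 probe sets lie between 1.07 and 1.23, while those of Cp run from 0.24 to 2.41.

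Ceruloplasmin, the copper ferroxidase that loads exported iron onto transferrin, showed the largest rise of the set, on 1 of its 3 probe sets. On 1368420_at the ratios were 0.242, 0.366, 0.606 and 0.406 in A2B5+ replicates 1 to 4 and 1.39, 2.50, 2.61 and 1.94 in GalC+ replicates 1 to 4. The groups did not overlap, with A2B5+ replicate 1 the lowest and GalC+ replicates 2 and 3 the highest arrays. The rise of Cp here was 5.33-fold (2.41 ± 0.27 SE on the log2 scale, n = 4 and 4, adjusted p = 0.000251), a size reached or passed by 0.435% of all probe sets. With any 1 array removed it still passed, at 2.19 to 2.63.

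The other Cp probe sets had smaller differences. Probe set 1368418_a_at had ratios of 0.886, 0.755, 0.918 and 0.779 in A2B5+ and 1.08, 1.46, 1.69 and 1.08 in GalC+ replicates 1 to 4, a 1.57-fold rise (0.65 ± 0.15, adjusted p = 0.00985). As with Hfe, GalC+ replicates 2 and 3 were the high arrays. Probe set 1368419_at did not pass (0.24 ± 0.10, 95% interval 0.00 to 0.47, adjusted p = 0.127), with ratios of 0.831 to 1.04 in A2B5+ and 0.941 to 1.24 in GalC+, although it passed without GalC+ replicate 4 (0.31, adjusted p = 0.0402).

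The difference in log2 fold change between 1368420_at and the other Cp probe sets was 1.77 and 2.18. In an exact two-sided permutation test over the 8 arrays each of these had p = 0.0286, the smallest that 4 against 4 arrays allow, and an adjusted p = 0.114 over the 8 pairs of probe sets compared within genes. An adjusted p under 0.05 would have needed most of the 8 pairs at that smallest p, so the adjusted value cannot decide this difference. Per the platform's table, 1368420_at was built on another sequence record than the other 2. Which splice forms of Cp each one reads was not determined here. The mean of the 3 probe sets was 1.10 (adjusted p = 0.000294). For Slc40a1, Tfrc and Slc11a2 the probe sets of a gene differed by 0.18 at most.

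Hephaestin (Heph), a membrane-bound relative of ceruloplasmin outside the set, was higher as well. Its ratios were 0.713, 0.495, 0.545 and 0.686 in A2B5+ and 1.6, 1.53, 1.83 and 1.29 in GalC+ replicates 1 to 4, with no overlap (2.57-fold, log2 fold change 1.36 ± 0.15, adjusted p = 0.00014).

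Heme oxygenase Hmox1, which opens the heme ring and releases its iron, was higher in GalC+. Its ratios were 0.464, 0.467, 0.832 and 0.541 in A2B5+ replicates 1 to 4 and 1.17, 1.5, 1.86 and 1.24 in GalC+ replicates 1 to 4. The groups did not overlap, and replicate 3 was the highest array in each. The rise was 2.54-fold (log2 fold change 1.34 ± 0.20 SE, n = 4 and 4, adjusted p = 0.00111) and still passed with any 1 of the 8 arrays removed (adjusted p up to 0.00457).

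Hmox1 and Slc40a1 are also known from macrophages that recycle red cells. Levels of the macrophage list were -0.95, -1.37, -0.57 and -1.22 in A2B5+ replicates 1 to 4 and 0.44, 0.63, 0.68 and 0.23 in GalC+ replicates 1 to 4. Replicate 3 was highest in each group, as for Hmox1, but this was so for 4 of the 9 cell type lists, the others being the oligodendrocyte, red cell and choroid plexus or ependymal lists. Cd163, which takes up haemoglobin bound to haptoglobin and is a macrophage gene, was 42.7-fold higher (log2 fold change 5.41). It was not alone in this list. The next largest rises were those of F13a1 (5.34, mean of its 2 probe sets 3.95), Mrc1 (4.12), Cd14 (2.52), Lyve1 (2.44), Pf4 (2.35) and Cd68 (2.28). Of the 22 genes of that list, the 5 that did not pass were Itgam (0.73), Ctss (0.26), Cx3cr1 (-0.14), P2ry12 (-0.35) and Tmem119 (-0.39), while genes that microglia also express, such as C1qa (0.72), Csf1r (0.87) and Trem2 (0.76), were higher. For Cp the oligodendrocyte list is set beside the values: its levels were -2.14, -2.80, -2.02 and -2.16 in A2B5+ replicates 1 to 4 and 0.90, 1.44, 1.66 and 0.80 in GalC+ replicates 1 to 4. Replicates 2 and 3 were the highest GalC+ arrays for this list and for the macrophage list, as they were for Cp on 1368420_at and for Hfe, whereas among A2B5+ arrays the oligodendrocyte list was lowest on replicate 2 and Cp on 1368420_at on replicate 1. A2B5+ replicate 2, the array on which Slc40a1 was lowest, was the lowest of its group for 7 of the 9 cell type lists, all but those of neurons and progenitors. On the first principal component, over all probe sets, GalC+ replicates 2 and 3 were also highest (57.1 and 54.1), before replicates 1 and 4 (34.9 and 27.9). A2B5+ replicate 2 was lowest there (-59.1, the others -43.5 to -30.5). Of the 13 member probe sets, GalC+ replicates 2 and 3 were the 2 highest GalC+ arrays in 7, and A2B5+ replicate 2 the lowest A2B5+ array in 9. The part of these cell types, or of this order over all probe sets, in the iron genes was not tested.

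**Figure D3:**
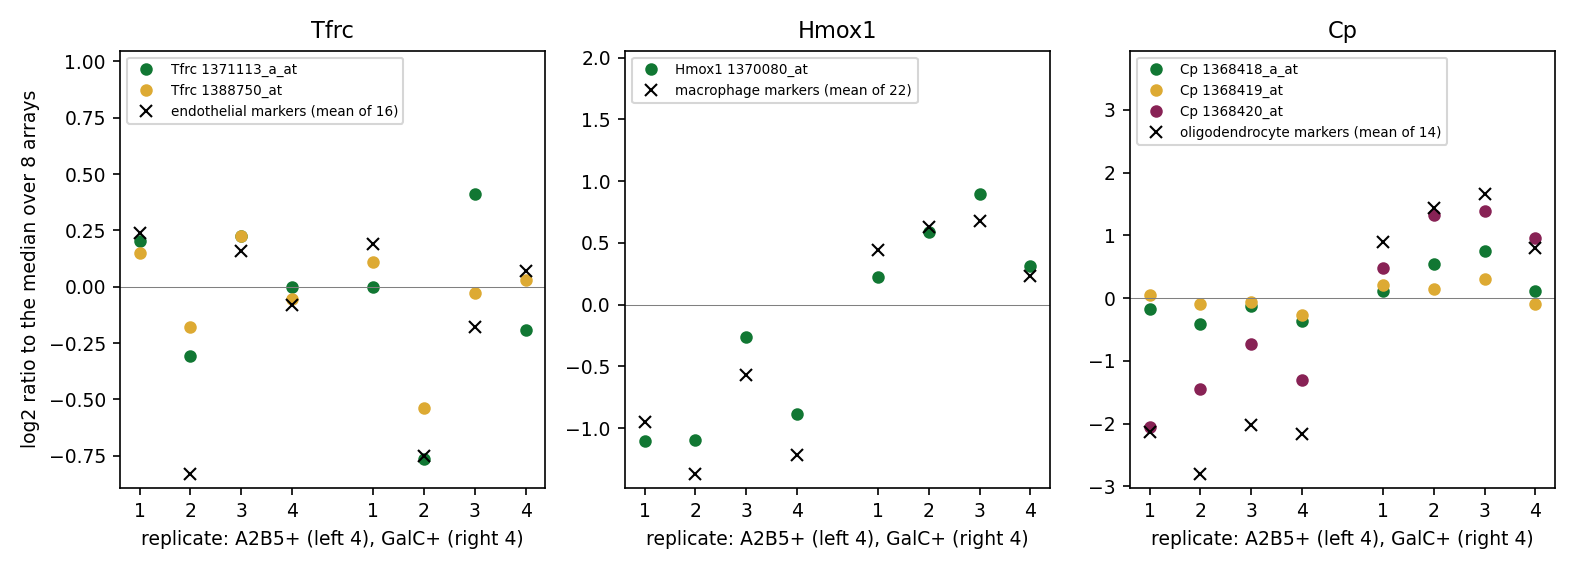
Log2 ratio on each array for Tfrc, Hmox1 and Cp probe sets (coloured points) beside the mean log2 ratio of a marker list (crosses), with A2B5+ replicates 1 to 4 on the left and GalC+ replicates 1 to 4 on the right of each panel. Tfrc and the endothelial list are lowest on replicate 2 of each group, and Hmox1, the macrophage list and the oligodendrocyte list are highest on replicate 3 of each group, so the order of arrays is shared by several lists.

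The genes most like each called member were found by the root mean square difference of log2 ratios over the 8 arrays, among 14210 other genes. Nearest to Hmox1 were Tlr2 (0.139), Cd53 (0.155) and Arhgap9 (0.161). Nearest to Cp on 1368420_at were Ebi3 (0.299), Aspa (0.301) and Ninj2 (0.316), and on 1368418_a_at C3h15orf48 (0.050), Selenot (0.058) and Hmox2 (0.073). Hfe lay closest to Ebp (0.126), Sc5d (0.136) and Rps4y2 (0.143). For Slc40a1, Afap1l1 (0.128), Ctla2a (0.153) and Dock9 (0.158) came first on 1387130_at, Lgals9 (0.132), Dock9 (0.147) and Tmem140 (0.155) on 1376972_at, and Ctla2a (0.117), Flvcr2 (0.149) and Slc25a45 (0.170) on 1390412_at. These distances are descriptions, and with 2 separate groups of arrays many genes share the main step.

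Transferrin itself (Tf) could not be read alone, because both of its probe sets are also tied to Srprb, a receptor subunit for protein targeting. On 1370228_at the ratios were 0.317, 0.229, 0.400 and 0.329 in A2B5+ and 1.6, 1.88, 2.12 and 1.61 in GalC+ replicates 1 to 4, far apart (5.73-fold, log2 fold change 2.52 ± 0.16, adjusted p = 9.06e-06). On 1391323_at the difference was 0.28 ± 0.09 and did not pass (adjusted p = 0.0531), although it passed with a trended and robust prior (0.0405), with array weights (0.0343) and without A2B5+ replicate 3 (0.0271).

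The rest of the iron pathway was read from 4 lists, each gene by its probe set with the largest variance, and against 18.2% of all genes higher and 17.5% lower. Heme genes were more often higher than lower: of 29 measured genes of heme synthesis, transport and breakdown, 11 were higher in GalC+ (37.9%) and 1 lower (3.45%), with a median log2 fold change of 0.09 beside 0.04 over all genes. Cd163, Slc48a1, which carries heme out of the lysosome (1.59 ± 0.20, adjusted p = 0.000335), and Cpox, an enzyme of heme synthesis (1.46 ± 0.09, adjusted p = 4.82e-06), rose most, and Ppox, the enzyme that acts after Cpox, fell (-0.36 ± 0.08, adjusted p = 0.00515). Named after their values were seen, the other heme oxygenase Hmox2 (0.74 ± 0.15, adjusted p = 0.00375) and the biliverdin reductases Blvra (0.86 ± 0.13, adjusted p = 0.000887) and Blvrb (1.24 ± 0.09, adjusted p = 1.08e-05) were higher too. Cd163 is also counted among the macrophage markers.

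Iron and ferritin transport went both ways, with 6 of 26 genes higher (23.1%), 5 lower (19.2%) and a median of 0.03. Tmem163, a zinc transporter placed in this list, rose most (2.33 ± 0.17, adjusted p = 1.23e-05; mean of its 2 probe sets 1.23), followed by the metalloreductase Steap4 (1.57 ± 0.38, adjusted p = 0.00932) and Heph. With the spread taken from each gene alone Steap4 missed the threshold (adjusted p = 0.0514). Pcbp3, of the family that holds iron chaperones (-1.46 ± 0.22, adjusted p = 0.000781), the metalloreductase Steap2 (-0.58 ± 0.14, adjusted p = 0.00816) and the iron chaperone Pcbp2 (-0.57 ± 0.17, adjusted p = 0.0277) fell. The means over all probe sets of these genes were -0.89, -0.28 and -0.26, and the last did not pass (adjusted p = 0.109). Pcbp2 also missed the threshold in 5 of 8 cases with 1 array removed (adjusted p up to 0.0764, without A2B5+ replicate 2).

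Regulators of iron genes had 5 of 27 members higher (18.5%), 4 lower (14.8%) and a median of 0.08, close to the shares over all genes. Bmp2, a ligand that can raise hepcidin (2.46 ± 0.11, adjusted p = 1.84e-06), Mafk (1.10 ± 0.24, adjusted p = 0.00514) and Nfe2l2, which pairs with small Maf proteins on antioxidant elements (0.68 ± 0.15, adjusted p = 0.00538), were the largest rises. The BMP receptor Acvr1 (-0.71 ± 0.17, adjusted p = 0.008; mean of its probe sets -0.40), Smad1 (-0.47 ± 0.15, adjusted p = 0.0376) and the glutaredoxin Glrx3 (-0.39 ± 0.11, adjusted p = 0.023) fell most. With 1 array removed, Smad1 missed the threshold in 6 of 8 cases (adjusted p up to 0.103, without A2B5+ replicate 1) and Glrx3 in 1 (0.0601, without GalC+ replicate 1). Both also missed the threshold with the spread taken from each gene alone (0.0942 and 0.0522).

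Mitochondrial iron and iron-sulfur cluster genes mostly showed no passing difference: of 29 measured, 4 were higher (13.8%), 1 lower (3.45%) and 24 did not pass, with a median of -0.01. Slc25a37, the mitochondrial iron importer (0.53 ± 0.10, adjusted p = 0.00254), and the cytosolic assembly factors Ciao2a (0.40 ± 0.11, adjusted p = 0.017) and Nubp2 (0.38 ± 0.10, adjusted p = 0.0186) were the largest rises. The last 2 missed the threshold with a trended and robust prior (0.055 and 0.0525), as did Nubp2 without GalC+ replicate 2 (0.0518). Nfs1, the cysteine desulfurase that supplies sulfur, was lower (-0.34 ± 0.10, adjusted p = 0.0224), but missed the threshold in 3 of 8 cases with 1 array removed (adjusted p up to 0.056, without A2B5+ replicate 4).

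**Figure D4:**
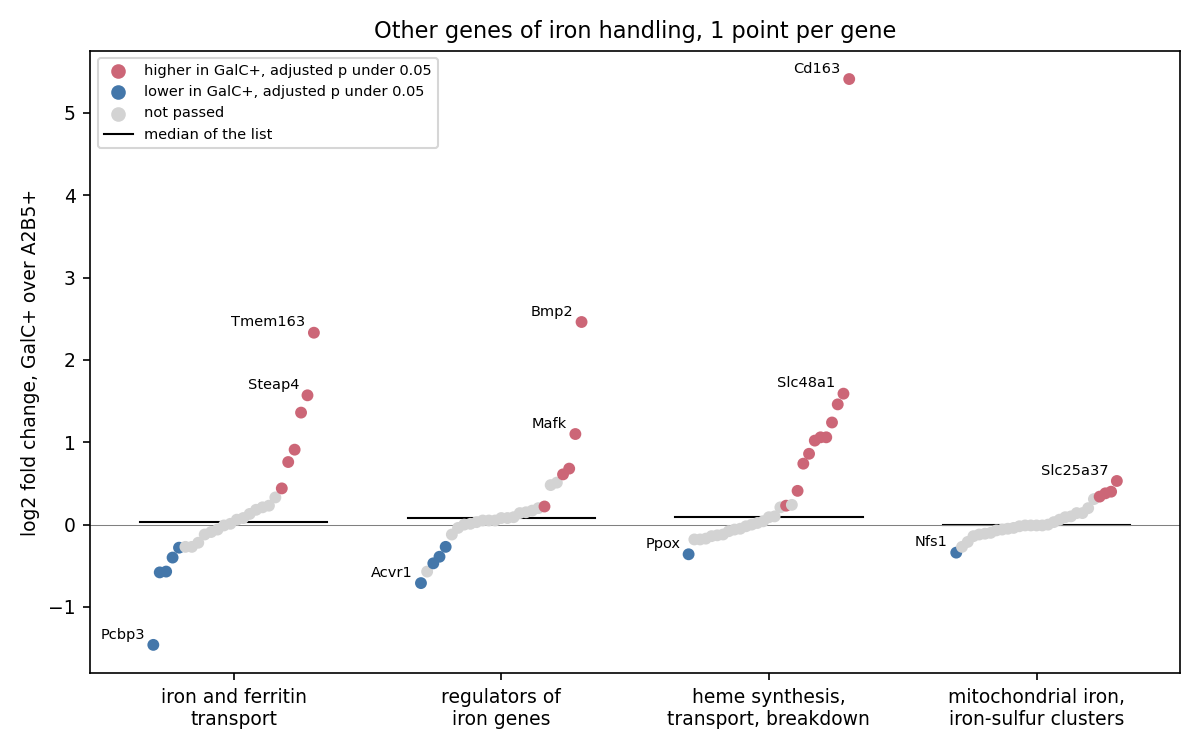
Log2 fold change of GalC+ over A2B5+ for each measured gene of 4 lists around the iron genes, in red where higher, blue where lower and grey where the adjusted p was not under 0.05, with a black line at the list median. Heme genes have 11 red points of 29 and 1 blue, and iron-sulfur genes 4 red and 1 blue of 29.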

How the data were processed

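The authors used RMA, a probe-level summary, per the submitters' processing notes, and its version and later steps are not given in the sources used here. Judged from the values, the deposited numbers are on a linear ratio scale, since all 31099 rows have a median of 1 (within 0.0005). Background and brightness could not be judged, and a fold from a dim probe set may be too small. Ratios were log2 transformed without pseudocount or further normalization. After removal of 57 control probe sets, 31042 were tested with limma 3.58.1 in R 4.3.3 (lmFit, eBayes, two-sided), adjusted over all of them. Of these, 20826 had 1 gene symbol, 436 several and 9780 none in the platform's table (20758 of the first found by gene ID in RefSeq). Lists were tested over 14217 genes. The fit was tested on simulated data. Nothing in the labels says that a replicate number marks a shared litter, so no block was used. No scan date or other batch is given.

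The members, lists and tests were chosen with earlier results of these data known. Named genes were all members, the 3 largest passing rises and falls of each list, and the 3 nearest genes of each called member. Named outside that rule, after values were seen, were Aco1, Hmox2, Blvra and Blvrb, the progenitor markers that passed, single macrophage markers, and the shared probe sets of transferrin. As alternatives, arrays were left out in turn, weighted, centred on their medians or quantile normalized, the replicate number was made a block, the prior was trended and robust or not used (the spread of each feature alone), and probe sets of a gene were averaged.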

Additional observations from a re-analysis of the deposited data

Results flagged for a closer look

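In 66 groups of 4 arrays, covering the member probe sets and the genes named from the lists, 2 had 1 array far from the other 3 by Dixon's ratio (gap over range); chance alone flags about 1 in 20 groups. On Slc40a1 probe set 1390412_at, GalC+ replicate 3 (ratio 1.16) lay below the other GalC+ arrays (1.34 to 1.38), with a Dixon ratio of 0.834. For Bmp2, A2B5+ replicate 2 (0.254) lay below the other A2B5+ arrays (0.337 to 0.347), with a ratio of 0.906.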

How the results depend on the processing

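The count of 7 higher member probe sets was 6 to 8 when 1 array was left out, and it stayed within 1.5 times in each of the 14 alternatives, with 0 lower in all of them. It was 7 with a replicate block. No label ties the numbers, and pairing was taken only if every same-numbered pair had deviations from the group means correlated above 0.1. These were 0.401, 0.089, 0.304 and 0.172, against -0.257 to 0.136 between unlike numbers, so the numbers were not taken as pairs. Only the value of 0.089 missed this cut, and narrowly. All 4 are positive, however, and those of numbers 1, 3 and 4 lay above every unlike pair. With deviations taken from the group means, positive values for like numbers push those of unlike numbers down. The unlike pairs are therefore not a neutral reference. Whether like replicate numbers in the 2 groups share a litter is not known. The block changed no call of a member probe set. The sign of Tfrc on 1371113_a_at turned without GalC+ replicate 2 (range -0.35 to 0.05 over the 8 fits). Small list counts moved most, and the cause was not tested. Lower transport genes numbered 3 and lower regulators 2 with the spread of each gene alone, and each numbered 2 to 4 without 1 array. Higher iron-sulfur genes numbered 2 with a trended and robust prior. Lower ones numbered 3 after quantile normalization, 2 after median centring, 2 with that prior, 2 after averaging the probe sets of each gene, and 0 to 1 without 1 array. Over all probe sets the median log2 fold change was 0.042, and 0.010 after quantile normalization. With 4 arrays a group precision is limited, and signal over background cannot be judged from ratios.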
